A study of Mus musculus with 2 samples.

Results

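The H19-Igf2 and Dlk1-Dio3 clusters are imprinted regions on mouse chromosomes 7 and 12, in which some genes are transcribed only from the chromosome inherited from the mother and others only from that of the father. The 8 genes described here, H19, Igf2, Meg3, Rian, Mirg, Dlk1, Rtl1 and Dio3, were taken by name and all 8 were found among the 55536 genes of the deposited gene table. Levels came from the gene table and transcript shares from the 2 transcript tables of each library. The rule names the genes and sets no threshold on a measured value.

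The libraries hold total RNA of the gastrocnemius, a muscle of the calf, from 2 female B6CASTF1/J mice aged 2 months. Such mice are F1 hybrids of the B6 and CAST strains, the labels name no treatment, and both form 1 group (n = 2), called animal 1 and animal 2. The input was 300 ng per library, and ERCC spike-ins, synthetic RNAs of known amount, were added. A single donor record covers both libraries and may mean the strain or a mouse. If all RNA came from 1 mouse, each SD below measures technical spread. The expected counts over genes summed to 45014831 in animal 1 and 47771308 in animal 2. Muscle fibre genes made up most of what the marker lists held, with summed levels over 8 of 8 genes of 67280 TPM in animal 1 and 64668 in animal 2 (TPM is a level corrected for transcript length and depth). The animals differed in markers of other cells, and those values are given after the ratios of the members.

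In the H19-Igf2 cluster the maternal chromosome makes the long non-coding RNA H19 and the paternal one makes Igf2, a growth factor of fetal life. A control region between them, methylated on the paternal chromosome, is bound by the insulator protein CTCF on the maternal one and directs shared enhancers to one gene or the other. In the Dlk1-Dio3 cluster the maternal chromosome makes the non-coding RNAs Meg3, Rian and Mirg with a large set of microRNAs and small nucleolar RNAs, and the paternal one makes the proteins Dlk1, Rtl1 and Dio3. Both clusters are very active before birth and mostly fall silent afterwards, and skeletal muscle is known as a tissue that keeps H19. The files hold no allele counts, so the parental origin of a read was not measured here, and maternally or paternally expressed is background from the field and not a result.

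On mm10 with the GENCODE M21 annotation, H19 lies at chr7:142575529-142578143 and Igf2 at chr7:142650766-142666816, both on the minus strand. The 2 genes and the ground between them cover 91.288 kb. The other members lie on chromosome 12 within 828.275 kb. Dlk1 comes first at chr12:109452823-109463336, followed by Meg3 at chr12:109541001-109571726, Rtl1 at chr12:109589193-109600330, Rian at chr12:109603940-109661716, Mirg at chr12:109729764-109749460 and Dio3 at chr12:110279068-110281097. Rtl1 is on the minus strand and the other 5 are on the plus strand.

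**Figure D1:**
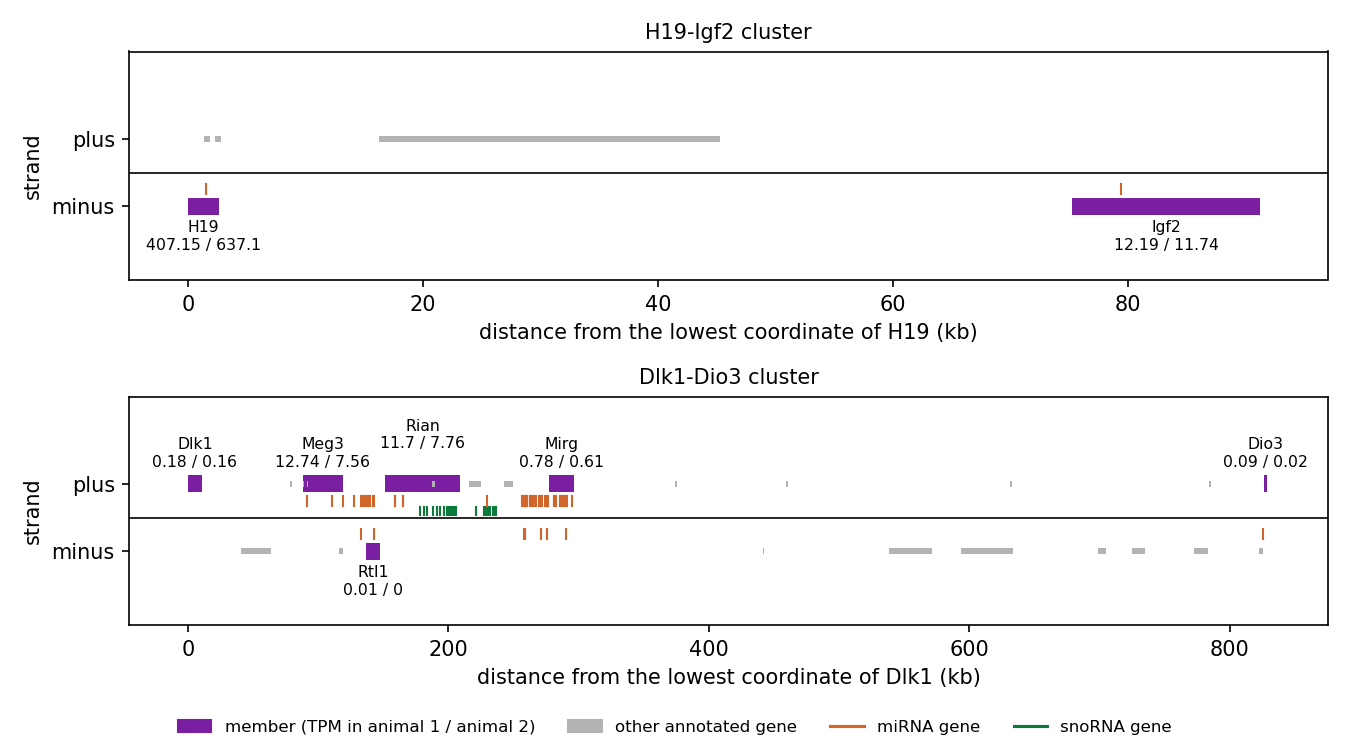
Map of both clusters, with the distance in kb from the lowest coordinate of H19 (top) or Dlk1 (bottom) on the x axis and the strand on the y axis. Purple boxes are the members with their TPM in animal 1 and animal 2, and ticks are microRNA and small nucleolar RNA genes, which crowd the stretch from Meg3 to Mirg. H19, at 407 and 637 TPM, is the member of highest level, and the members on the far ends of the chromosome 12 cluster, Dlk1 and Dio3, are below 1 TPM.

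Adult gastrocnemius held H19 at a high level, Igf2, Meg3 and Rian at a moderate one, and the 4 other members at very low levels. Of the 8 members, 4 reached 1 TPM in both animals. By parental class from the literature, these were 3 of the 4 maternally expressed members, H19, Meg3 and Rian, and 1 of the 4 paternally expressed ones, Igf2. The maternally expressed members are all non-coding and the paternally expressed ones all protein-coding, so the classes cannot be told apart here. Over all genes, 354 and 348 of 10155 long non-coding RNA genes reached 1 TPM in animal 1 and animal 2. Among 22028 protein-coding genes, 10834 and 10346 did. From the highest mean down, the order was H19, Igf2, Meg3, Rian, Mirg, Dlk1, Dio3 and Rtl1. Between neighbours in this order, the steps from Igf2 to Meg3 and from Meg3 to Rian were within 2 SD of the 2 animals' log2 level ratios, so these neighbours were not told apart. The steps from H19 to Igf2, from Rian to Mirg and from Mirg to Dlk1 were larger than that spread. Dio3 and Rtl1 were at or under 3 reads in 1 or both animals, so their place at the end of the order rests on counts too low to compare.

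**Figure D2:**
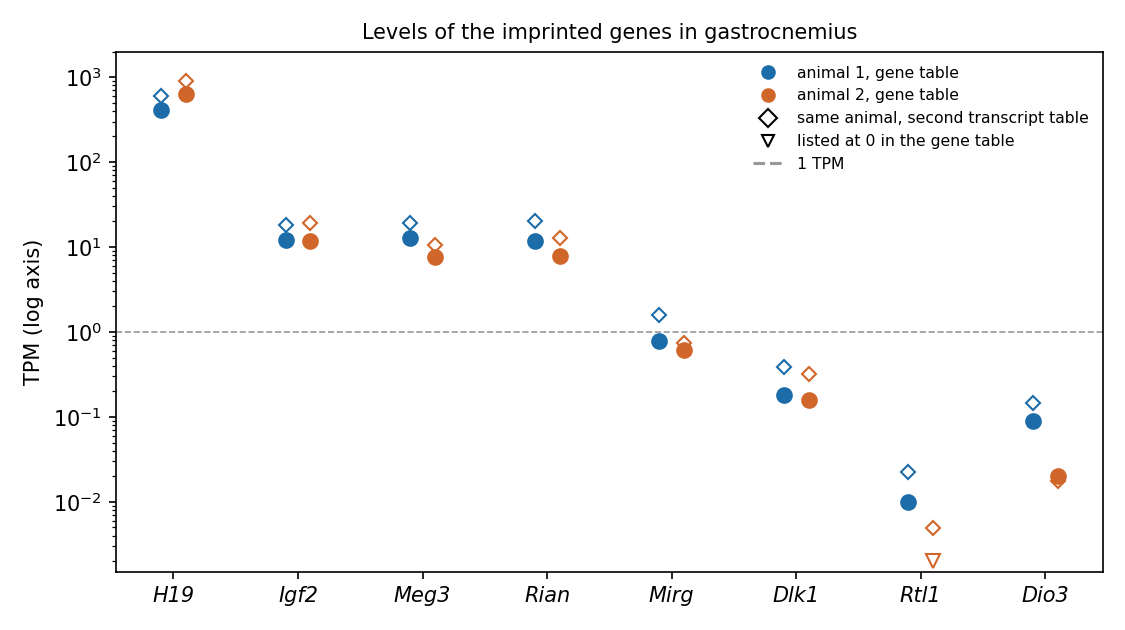
Level of each member in TPM on a log axis, as circles for the gene table and open diamonds for the second transcript table, in blue for animal 1 and orange for animal 2. H19 stands at 407 and 637 TPM in the gene table, Igf2, Meg3 and Rian stand near 10 TPM, and Mirg, Dlk1, Rtl1 and Dio3 lie below the dashed line of 1 TPM in the gene table.

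H19 had 407 TPM and 31468 reads in animal 1 and 637 TPM and 52875 reads in animal 2 (522 ± 163 TPM, SD, n = 2). It ranked 122 among all genes by mean level. Among 10155 long non-coding RNA genes it was the fifth in each animal, and it held 3.81% and 5.95% of their summed TPM. The 4 above it were Gm26917, Malat1, Gm42418 and Rmrp, of which Malat1 is an abundant nuclear RNA and Rmrp the RNA of an RNA-processing enzyme. Rank and share depend on these entries. Gm26917 alone was at 4613 and 4458 TPM, and Rmrp, at 849 and 732 TPM, was at 0 in both animals in the second transcript table. The posterior SD of its count, the gene table's own measure of how uncertain the assignment of reads is, was 0 in both animals, so no read was uncertain between it and another gene.

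Igf2 had 12.2 TPM and 999 reads in animal 1 and 11.7 TPM and 933 reads in animal 2 (11.97 ± 0.318 TPM, SD, n = 2). The animals were almost level for this gene. H19 thus stood 33.4-fold above Igf2 in animal 1 and 54.3-fold in animal 2. On a log2 scale with a pseudocount of 0.1 TPM, this ratio was 5.40 ± 0.49 (SD, n = 2), larger than the spread between animals.

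Of the maternally expressed RNAs of chromosome 12, Meg3, known as a non-coding RNA with growth-restraining activity, reached 12.7 TPM in animal 1 but 7.56 TPM in animal 2 (10.2 ± 3.66, SD, n = 2), from 669 and 441 expected reads. Rian, whose introns carry small nucleolar RNAs, was at 11.7 and 7.76 TPM (9.73 ± 2.79, SD, n = 2), from 662 and 445 reads. Both RNAs were lower in animal 2. Meg3 and Rian were alike in level within each animal, with a ratio of 1.09 in animal 1 and 0.974 in animal 2. The log2 ratio of 0.04 ± 0.11 (SD, n = 2) was not larger than the spread, and in the second transcript table it was -0.18.

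Mirg, a host RNA of microRNAs, was at 0.78 and 0.61 TPM (0.695 ± 0.1202, SD, n = 2), from 50 and 37 reads. It was far below the other RNAs of its cluster, with Rian 15-fold higher in animal 1 and 12.7-fold higher in animal 2. The log2 ratio of Rian over Mirg was 3.61 ± 0.20 and that of Meg3 over Mirg was 3.65 ± 0.31 (SD, n = 2), both larger than the spread. The 3 genes are thought to be parts of 1 long transcription unit, and their levels per length were not equal here.

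The paternally expressed protein genes of the chromosome 12 cluster had very few reads. Dlk1, a Notch-like transmembrane protein that holds back adipocyte differentiation, was at 0.18 and 0.16 TPM, from 11 and 9 reads. Dio3, the deiodinase that inactivates thyroid hormone, was at 0.09 and 0.02 TPM, from 6 reads and 1 read. Rtl1, a retrotransposon-derived protein of placenta and fetal muscle, had 2 reads in animal 1 and none in animal 2, both at or under a floor of 3 counts, which is worth 0.0127 and 0.0120 TPM. Its level is therefore given as a limit, and no ratio between animals is read from it. Meg3 was higher than Dlk1 by 5.20 ± 0.45 on the log2 scale (SD, n = 2), which the pseudocount of 0.1 TPM understates, since Meg3 was 70.8-fold and 47.2-fold above Dlk1 by plain TPM. No such ratio is given against Dio3 and Rtl1, where the pseudocount would set the value. Of the 6 level ratios between members above 3 reads in both animals, 5 were larger than the spread, and Meg3 over Rian was not.

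Within the cluster bounds, the annotation lists 7 genes on chromosome 7 and 118 on chromosome 12. On chromosome 7, 3 had reads, which were H19, Igf2 and the non-coding Gm33148 between them, which had 25 and 10 reads (0.09 and 0.04 TPM). On chromosome 12, 13 of 118 had reads and 7 had a mean count of at least 10. Besides Meg3, Rian, Mirg and Dlk1 these were Gm26945 with 11 and 12 reads, B830012L14Rik with 13 and 10, and Gm37899 with 39 and 18. All 3 lay between Rian and Mirg or inside Rian, and none reached 0.2 TPM. The stretch beyond Mirg held little, and Dio3os, which starts next to Dio3 on the other strand, had 7 and 8 reads.

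The small RNAs that the clusters are best known for cannot be read from these libraries. Of 67 annotated microRNA genes on chromosome 12, 59 had an effective length of 0, too short for the fragments sequenced, and 1, Mir433, had a read, in animal 1. All 23 small nucleolar RNA genes also had an effective length of 0. These zeros therefore say nothing about the mature small RNAs. What the libraries do measure is the host RNAs, so the RefSeq hairpins (GRCm38.p6) were placed on the members. RefSeq gave 60 hairpins, 2 on chromosome 7 and 58 on chromosome 12. In the chromosome 12 cluster 14 lay within Mirg, of which 4 lay in an exon of a transcript, 3 in introns of Rian, 1 in an exon of Meg3, 6 opposite the exon of Rtl1, 1 in the exon of Rtl1 on its own strand, and 33 in none of the members. Mir1906-1, Mir666 and Mir544 of this cluster had mature sequences but no hairpin here, so these counts leave them out. Of them, Mir1906-1, at chr12:109544541-109544620, lies within Meg3 on the same strand.

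Mir675 lies in exon 1 of H19-202 at chr7:142577064-142577147, the transcript with nearly all H19 reads, and is cut from the most abundant host RNA of the set. Mir483, at chr7:142654924-142654996 within Igf2, lies in an exon of 0 of its 9 transcripts. The mature sequences of both are shown because they tie a small RNA to the 2 members of highest level, with the seed, bases 2 to 8 from the 5′ end that pair with targets, in capitals.
miR-675-5p: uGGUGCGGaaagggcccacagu
miR-675-3p: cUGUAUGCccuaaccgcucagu
miR-483-5p: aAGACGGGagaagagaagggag
miR-483-3p: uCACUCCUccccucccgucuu

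The hairpins opposite Rtl1 are made from the maternal strand and match the Rtl1 RNA perfectly, which is the known means by which they cut it. They are Mir431, Mir433, Mir127, Mir434, Mir432 and Mir136, between Mir431 at chr12:109590447-109590537 and Mir136 at chr12:109595327-109595388. 1 arm each of 5 of them is shown, again with the seed in capitals, since they lie opposite a member. Their levels were not measured here, and their part in the few reads of Rtl1 was not tested.
miR-431-5p: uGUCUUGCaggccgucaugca
miR-433-3p: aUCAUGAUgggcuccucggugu
miR-127-3p: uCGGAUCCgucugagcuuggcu
miR-434-3p: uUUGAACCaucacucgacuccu
miR-136-5p: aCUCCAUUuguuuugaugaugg

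The 5 shown have 5 different seeds. Over both clusters, the 117 distinct mature sequences carried 108 seeds, and 9 seeds were shared by 2 mature sequences each. Those of Mir1906-1, Mir666 and Mir544, which had no hairpin here, are among the 117. The groups below are 3 of these 9, all from the stretch just before Mirg, and the pairs differ to unequal degrees outside the seed.
Seed AUGUAAC:
miR-379-3p: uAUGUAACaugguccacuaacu
miR-411-3p: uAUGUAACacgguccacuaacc
Seed GGUAGAC:
miR-379-5p: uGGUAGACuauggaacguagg
miR-1193-5p: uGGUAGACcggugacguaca
Seed UGGAUAU:
miR-376b-5p: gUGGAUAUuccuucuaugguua
miR-376c-5p: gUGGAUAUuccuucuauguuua

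The animals were then compared as log2 ratios of expected counts, animal 2 over animal 1, scaled so that the bulk of genes is even (TMM factors). Each ratio has a 95% interval that covers counting error only. H19 was the 1 member higher in animal 2, and the RNAs Meg3 and Rian were both lower there. For H19 the ratio was 0.77 (interval 0.75 to 0.79), or 1.71-fold. Of the 10872 genes whose mean count was at least 100, 4.92% were at least that far apart in either direction, and so were 4.67% of the 107 genes with a count within 2-fold of its own. For Meg3 the ratio was -0.58 (-0.75 to -0.40) and 8.19% of the 10872 genes and 7.2% of those of similar count were at least as far apart. For Rian it was -0.55 (-0.73 to -0.37), with 9.04% of genes at least as far apart, or 7.89% at a similar count. Igf2, at -0.07 (-0.20 to 0.06), lay within counting error of no difference, and 71.4% of genes were at least as far apart, or 66.1% at a similar count. With 2 libraries there is no test between animals, and these intervals leave out every source of variation but counting.

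Mirg had a ratio of -0.41 with an interval of -1.06 to 0.23, and Dlk1 one of -0.25 with an interval of -1.71 to 1.14, so neither difference was detectable at this depth. Dio3, at 6 reads and 1 read, had -2.10 with an interval of -8.08 to 0.48. The sum of Meg3, Rian and Mirg was 1381 reads in animal 1 against 923 in animal 2, a ratio of -0.56 (-0.68 to -0.44), or 1.47-fold higher in animal 1. As H19 and Meg3 moved in opposite directions, H19 was 32.0-fold above Meg3 in animal 1 and 84.3-fold in animal 2 by TPM.

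None of the 4 members whose mean count was at least 100 were 2-fold apart, against a background of 2.97% of the 10872 genes at that depth (323 genes, of which animal 2 had the higher level for 86 and animal 1 for 237). Scaled on the spike-ins, that split was 137 and 174, and the median of all genes moved from 0.02 to 0.22. At a mean count of at least 10 none of 6 members were 2-fold apart, against 7.61% of genes. All 8 members had a mean count of at least 1, and 2 of them were past 2-fold, against 18.2% of genes at that depth. They were Dio3 on its 6 reads and 1 read and Rtl1 on 2 reads and none, counts too low to compare. Of the 7 members with a read in both animals, 1, Dio3, was past 2-fold. The median ratio was -0.33 over the 6 members whose mean count was at least 10 and -0.41 over the 7 with a read in both animals, beside 0.02 over the 10872 genes. By parental class the median was -0.48 over the 4 maternally expressed members and -0.25 over the 3 paternally expressed ones with a read in both animals, of which Dlk1 and Dio3 had at most 11 reads. Beside the shifted median of 0.22 under spike-in scaling, H19 was at 0.97, Igf2 at 0.12, Rian at -0.35 and Meg3 at -0.38, so the sign of Igf2 turned and those of the other 3 did not.

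**Figure D3:**
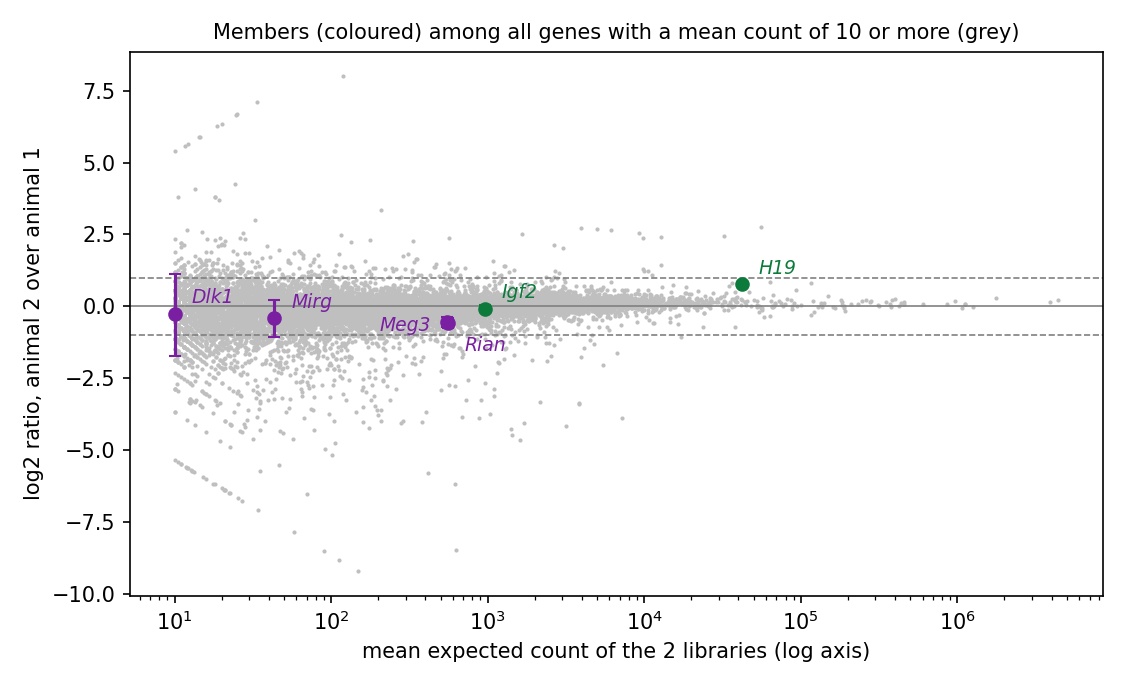
Log2 ratio of animal 2 over animal 1 against the mean expected count (log axis) for all genes whose mean count was at least 10 in grey, with members on chromosome 7 in green and on chromosome 12 in purple. Bars are 95% counting intervals and dashed lines mark 2-fold. H19 sits at 0.77, above most grey points of similar count, Meg3 and Rian lie together near -0.56, and Mirg and Dlk1 have intervals that span 0.

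Markers of other cells moved between the same animals. In bulk tissue fewer cells of a type and less RNA per cell cannot be told apart. Counts past 2-fold in the lists that follow are over the members whose mean count was at least 100. Of all 10872 genes at that depth, 2.18% were 2-fold higher in animal 1 and 0.791% in animal 2. Adipocyte markers were lower in animal 2 for 10 of 10 genes (9 past 2-fold), with summed levels of 829.69 and 108.91 TPM and a median log2 ratio of -3.82. Schwann cell and myelin markers were lower for 10 of 10 (8 of the 8 counted past 2-fold, 259.38 and 35.83 TPM, median -2.72). Macrophage markers were lower for 8 of 8 (69.91 and 44.41 TPM), and at -0.51 their median ratio was close in size to those of Meg3 and Rian. Fibroblast and fibro-adipogenic markers were lower for 7 of 10 (2 past 2-fold, 1242.5 and 913.98 TPM, median -0.42). Pericyte and smooth muscle markers were lower for 7 of 8 (3 past 2-fold, 214.94 and 122.94 TPM, median -0.23), and endothelial ones for 6 of 10 (110.84 and 95.51 TPM, median -0.10).

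In the direction of H19, tenocyte markers were higher in animal 2 for 7 of 7 genes (3 past 2-fold), with summed levels of 124.66 and 225.54 TPM and a median of 0.95. Slow fibre markers were higher for 8 of 8, all past 2-fold (928.6 and 3979.8 TPM, median 2.50). Satellite cell markers were higher for 5 of 8 (19.72 and 20.08 TPM, median 0.18) and muscle fibre markers for 5 of 8 (median 0.10). No marker of these 10 lists was at 0 in both animals. The part of these cells in the ratios of H19, Meg3 and Rian was not tested.

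**Figure D4:**
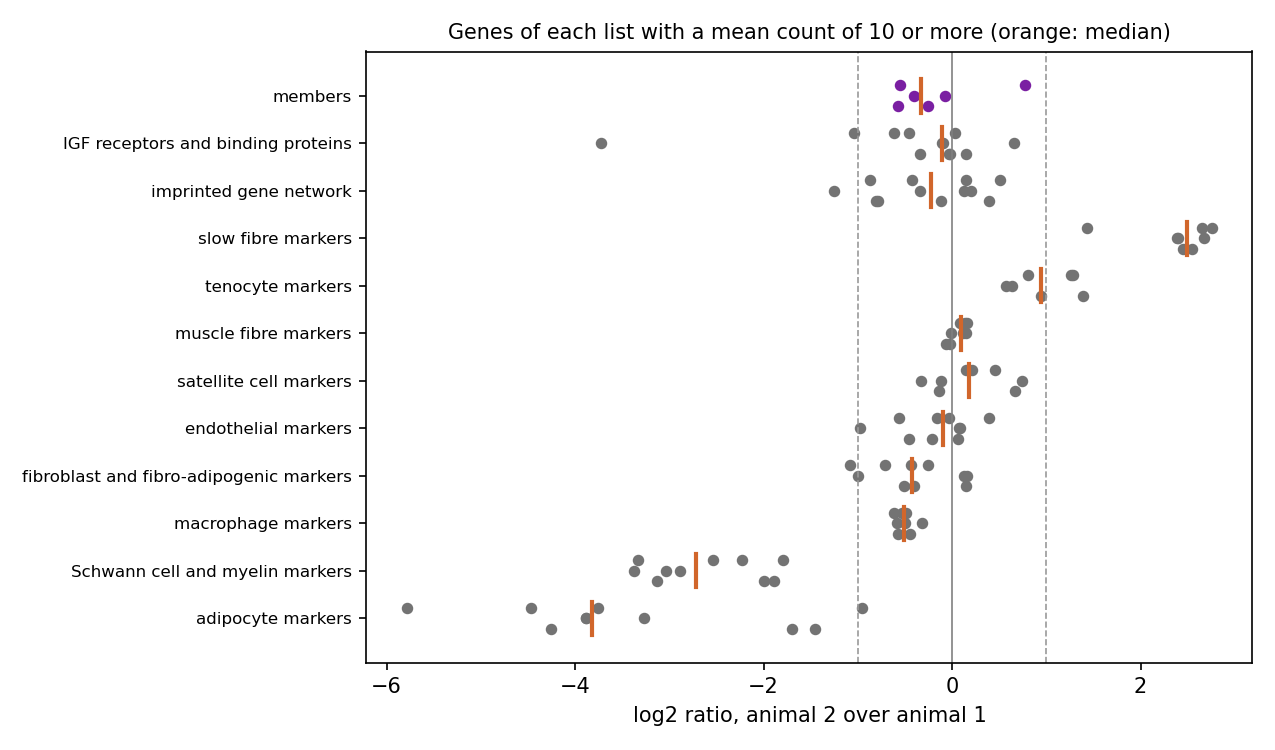
Log2 ratio of animal 2 over animal 1 for genes whose mean count was at least 10, by list, with the members in purple, the other lists in grey, the median of each list as an orange bar and dashed lines at 2-fold. Most members fall between -0.6 and 0, near the macrophage and fibroblast markers, and H19 lies to the right among the tenocyte markers, while adipocyte and Schwann cell markers are far to the left and slow fibre markers far to the right.

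H19 came almost wholly from 1 transcript. H19-202, of 2286 nt and 5 exons, held 86.4% of the gene's TPM in animal 1 and 88.2% in animal 2 in the first transcript table (87.3 ± 1.28%, SD, n = 2), and 83.1 ± 1.61% in the second. The tables differed on the rest. H19-206 held 0.230 ± 0.0566% in the first table and 12.4 ± 0.814% in the second, whereas H19-207 held 6.78 ± 0.884% and 0.164 ± 0.112% (SD, n = 2). Within each table the 2 animals lay close together, so the tables and not the animals differ here.

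Igf2 has several start sites, and by reads, though not by share of TPM, the pair nearest the coding exons held most. Transcripts were put to the nearest of 4 RefSeq starts within 1000 bases, numbered from upstream. Start 3 held 44.5% of the expected reads in animal 1 and 38.6% in animal 2 in the first table (41.6 ± 4.14%, SD, n = 2), and 36.4 ± 4.22% in the second. Start 4 held 31.5 ± 2.45% and 39.5 ± 4.83%. Start 2 held 12.9 ± 2.30% and 15.0 ± 1.5%, and start 1, the one farthest upstream, 3.56 ± 0.399% and 0.891 ± 0.196%. Which of starts 3 and 4 led thus depended on the table, and both placed the largest part of the reads on these 2. Counts of reads favour long models. By share of TPM in the first and second table, start 4 held 21.8 ± 1.08% and 21.8 ± 0.411%, and start 3 held 18.8 ± 3.09% and 15.5 ± 3.63%. Start 2 was at 20.55 ± 5.49% and 8.89 ± 1.68%, and start 1 at 13.4 ± 0.629% and 5.27 ± 0.601%. Models that begin inside the gene were at 25.5 ± 4.10% and 48.5 ± 4.29% (SD, n = 2).

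By share of TPM no Igf2 transcript dominated. The short Igf2-208, a non-coding transcript of 958 nt that begins inside the gene, led the first table with 25.5 ± 4.10%. In the second table Igf2-209, a fragment of 462 nt, led with 31.2 ± 6.47% and was at 0% in the first (SD, n = 2). These short models draw a high TPM from few reads, and both together held 10.5 ± 1.01% of reads in the first table and 8.25 ± 0.697% in the second. The 5′ end of Igf2-205, the 1 transcript put to start 3, lies 685 bases upstream of that RefSeq start, whereas Igf2-201 begins at start 4. Of the 2 starts that led by reads, start 4 is the one that both annotations place alike. The 300 bases around it, 250 before and 50 after, are therefore the ones shown. They lie at chr7:142657447-142657746 and are read on the minus strand (RefSeq, GRCm38.p6). Matches to the GC box GGGCGG and to CCAAT on either strand are in capitals.
Igf2 start 4: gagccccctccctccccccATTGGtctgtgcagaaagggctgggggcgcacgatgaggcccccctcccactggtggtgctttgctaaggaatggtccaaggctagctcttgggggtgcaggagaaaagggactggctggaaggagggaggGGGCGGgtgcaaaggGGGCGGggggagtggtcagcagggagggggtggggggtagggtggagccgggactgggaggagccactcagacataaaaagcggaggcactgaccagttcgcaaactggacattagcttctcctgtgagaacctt

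The window had a GC content of 63.3%, 2 GC boxes and 1 CCAAT box. A GC box was present in 35.7% of the 32851 promoter windows of the same length and a CCAAT box in 37.4%, so neither match is rare.

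Meg3 reads were spread over several transcripts. Meg3-205 led the first table with 25.6% of TPM in animal 1 and 23.0% in animal 2 (24.3 ± 1.86%, SD, n = 2), and held 23.2 ± 0.0245% in the second, where Meg3-211 was just above it at 23.6 ± 3.30%. By reads the longest model, Meg3-209 of 14548 nt, held most, with 34.5% and 35.2% in the first table and 37.2% and 36.8% in the second, although its share of TPM was 3.44 ± 0.156%. The gene's count carried a posterior SD of 9.88 in animal 1 and 6.96 in animal 2, so a small part of its reads was also compatible with another gene. The first Meg3 start at chr12:109540746-109541045 on the plus strand is shown since Meg3-205 begins there. Meg3-209, with the largest share of reads, begins instead at the second RefSeq start, chr12:109545398, which is not shown. Capitals mark matches to TATAAA, to TGACGTCA, the site of the cyclic AMP response factor CREB, and to CCAAT.
Meg3: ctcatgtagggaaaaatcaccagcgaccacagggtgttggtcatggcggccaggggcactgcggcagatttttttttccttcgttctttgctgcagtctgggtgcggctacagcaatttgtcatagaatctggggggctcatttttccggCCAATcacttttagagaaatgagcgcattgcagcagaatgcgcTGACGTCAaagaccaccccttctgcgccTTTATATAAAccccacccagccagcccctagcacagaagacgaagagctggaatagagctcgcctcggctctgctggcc

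The window held TATAAA on both strands in 1 run, starting 29 and 25 bases before the start site, and TGACGTCA and CCAAT once each. TATAAA was found in 13.6% of the 32851 windows and TGACGTCA in 1.79%. The windows of the second Meg3 start and of Rian held none of the 4 motifs, and that of Mirg held CCAAT once. That of Dio3 held TATAAA starting 31 bases before the start, 4 GC boxes and 2 CCAAT boxes. Dlk1 had none of them. The windows of Dlk1, Rian and Mirg are set at chr12:109452823, chr12:109603945 and chr12:109734981. Their leading transcripts begin elsewhere, Dlk1-205 at chr12:109453455, Rian-202 at chr12:109646141 and Mirg-201 at chr12:109737780, and the bases there were not searched. These matches are descriptions of the letters and not of binding.

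Rian was led by Rian-202, of 2355 nt and 11 exons at the 3′ end of the gene, in both tables. It held 40.6% of TPM in animal 1 and 31.8% in animal 2 in the first table (36.2 ± 6.22%, SD, n = 2) and 26.2 ± 3.80% in the second. Rian-213, which overlaps it, held 16.9% and 24.9% in the first table. Mirg-201 led Mirg in both tables, with 35.2 ± 1.87% and 30.1 ± 11.8% (SD, n = 2). Over all 8 members, 5 had the same leading transcript in both tables. The 3 that did not were Igf2, Meg3 and Dio3. For Dlk1, Dio3 and Rtl1 the shares rest on at most 14 reads in either table.

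**Figure D5:**
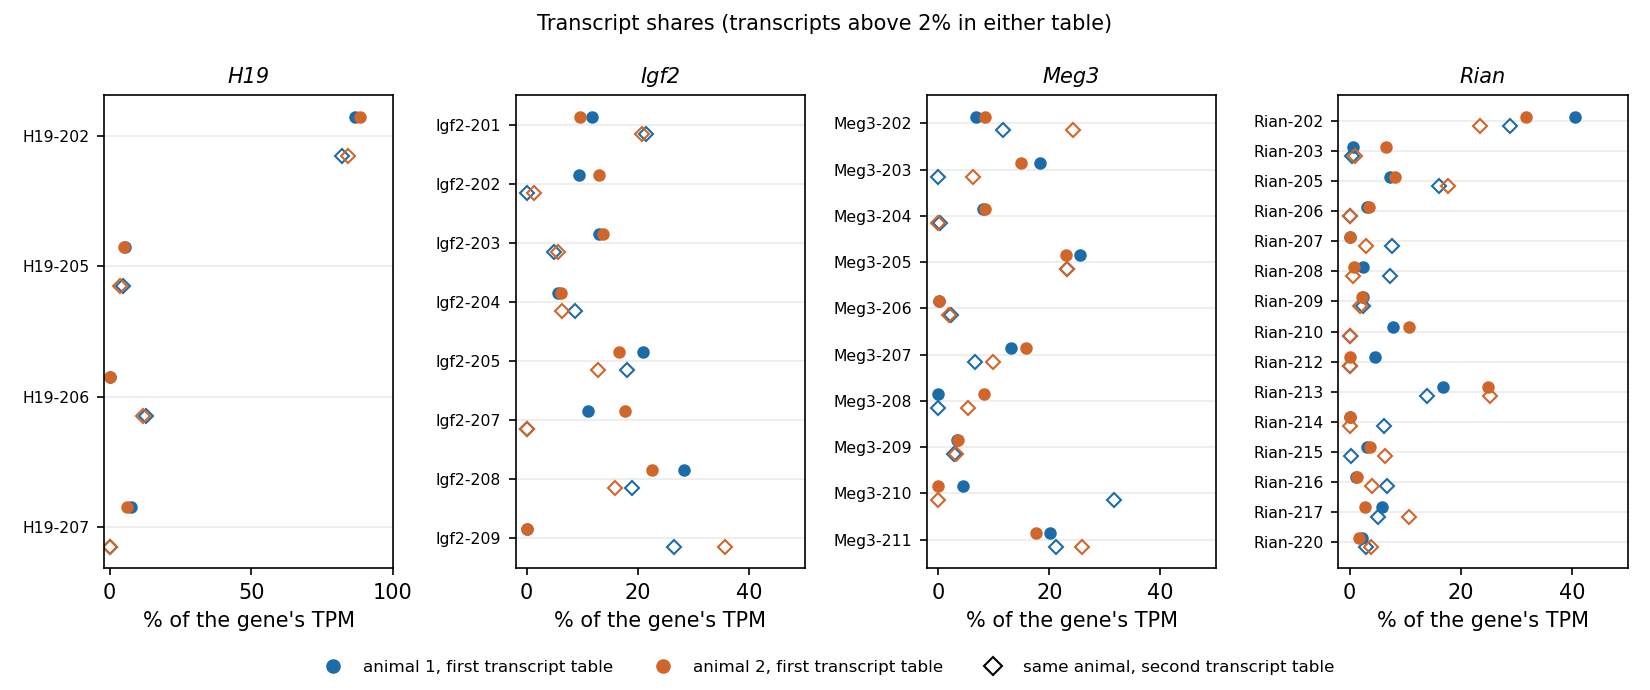
Share of the gene's TPM (x axis, percent) held by each transcript above 2% in either table, for H19, Igf2, Meg3 and Rian, with circles for the first and open diamonds for the second transcript table, in blue for animal 1 and orange for animal 2. H19-202 holds over 80% in every case, and Igf2-209 and H19-206 stand above 10% in the second table but at or near 0 in the first.

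The second transcript table put all members with over 100 reads at higher TPM. It gave H19 591 and 904 TPM (rank 4 and rank 3 among the long non-coding RNA genes), Igf2 18.15 and 18.99, Meg3 19 and 10.58, and Rian 20.3 and 12.8. The reads behind H19 were nearly the same, at 31506 and 52494. The order of the animals was the same for H19, Meg3 and Rian in both tables, and for Igf2, level within counting error, it was the opposite by TPM.

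None of the listed neighbours of the clusters with a mean count of at least 100 were 2-fold apart between the animals. Of all 10872 genes at that depth 2.97% were, so in lists this short none past 2-fold is near the background. Of 10 neighbours of H19-Igf2, 5 reached 1 TPM in both animals and none of the 5 whose mean count was at least 100 were 2-fold apart, with a median of 0.05. Fast troponin genes, which encode parts of the calcium switch of fast fibres, were the highest, with Tnnt3 at 10303 and 10361 TPM and Tnni2 at 5703 and 5711 TPM, before Ctsd, a lysosomal protease, at 174 and 167 TPM. The log2 ratios between the animals were 0.14 for Tnnt3 and 0.12 for Tnni2, beside 0.77 for H19. Of 8 neighbours of Dlk1-Dio3, 7 reached 1 TPM and none of the 7 counted were 2-fold apart, with a median of 0.20. Hsp90aa1, a chaperone, was at 27.9 and 32.0 TPM, Ppp2r5c, a phosphatase subunit, at 28.2 and 29.0, and Dync1h1, the dynein heavy chain, at 25.3 and 26.0.

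Of 15 listed genes of receptors and binding proteins around Igf2, 11 reached 1 TPM in both animals and 2 had no reads in either. The list's median level was 6.84 TPM. Of 22028 protein-coding genes, 10834 reached 1 TPM in animal 1 and 10346 in animal 2. Of the 11 listed genes above a mean count of 100, none were 2-fold higher in animal 2 (background 0.791%). In animal 1, 1 was 2-fold higher (background 2.18%), and the list's median log2 ratio was -0.11. Igfbp5, a binding protein made by muscle, was the highest at 65.6 and 95.8 TPM, followed by Igfbp7 at 55.1 and 33.2 and Igfbp6, which prefers IGF2, at 43.0 and 31.4. Igfbp4 was the gene past 2-fold, at 30.2 and 13.2 TPM (-1.04). Igf2r, which clears IGF2 and is itself imprinted, was at 16.4 and 16.8 TPM, Igf1r, the signalling receptor, at 4.17 and 2.88, and the sister ligand Igf1 at 10.8 and 6.41. These 3 were named after their values were seen.

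Several partners of Dio3 and Dlk1 were above 1 TPM, unlike these members themselves. Of 7 genes of thyroid hormone handling, 4 reached 1 TPM. None of the 5 at a mean count of 100 or more were 2-fold apart (background 2.97%, median 0.08). Thra, the main thyroid receptor of muscle, was at 35.1 and 34.7 TPM, Slc16a10, a transporter, at 13.4 and 14.3, and Thrb at 10.1 and 14.3. Dio2, the activating deiodinase, named after its value was seen, was at 1.12 and 0.76 TPM. Of 10 Notch receptors and ligands, 8 reached 1 TPM. None of the 8 at a mean count of at least 100 were 2-fold apart (background 2.97%, median -0.09). Jag2 was at 10.2 and 10.8 TPM, Notch3 at 5.69 and 5.29 and Notch1 at 4.85 and 4.26.

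Of 15 listed factors around imprints and DNA methylation, Tet1, Tet2 and Tet3 included, 10 reached 1 TPM. None of the 11 at a mean count of at least 100 were 2-fold apart (background 2.97%, median 0.04). The factors were led by the DNA methyltransferase Dnmt3a at 33.0 and 35.0 TPM and Trim28 at 29.7 and 25.6. Ctcf, the insulator protein of the H19 control region, followed at 15.6 and 15.3. Of 12 genes of the imprinted gene network, a set of growth genes reported to vary together with H19 and Igf2, 10 reached 1 TPM. Of the 12, all at that depth, none were 2-fold higher in animal 2 (background 0.791%) and 1 in animal 1 (background 2.18%), with 5 higher in animal 2 and 7 lower (median -0.23). Peg3, a zinc finger protein made from the paternal chromosome, was the gene past 2-fold, at 8.36 and 2.87 TPM (-1.25). The highest were Gnas at 557 and 477 TPM, Dcn at 178 and 180, and Slc38a4 at 38.0 and 51.0.

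Of 8 MEF2 and myogenic factors, which drive muscle genes and have been tied to the Dlk1-Dio3 small RNAs, 6 reached 1 TPM. None of the 6 at a mean count of at least 100 were 2-fold apart (background 2.97%, median 0.22). Mef2c was at 174 and 178 TPM, Mef2d at 59.2 and 61.9 and Myf6 at 47.7 and 34.9. Of 7 proteins of the let-7 axis, for which H19 has been described as a sponge, 4 reached 1 TPM. None of the 4 at a mean count of at least 100 were 2-fold apart (background 2.97%, median -0.06). Ago2 was at 28.7 and 26.9 TPM, Elavl1 at 17.8 and 17.8 and Dicer1 at 13.1 and 12.6.

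The genes nearest to 4 members in level were sought among 19794 protein-coding and long non-coding genes, as the distance between their log2(TPM + 0.1) in the 2 animals. With 2 points this measures level more than pattern. No gene lay within 0.1 of H19, and the closest were Hspa8 (0.202), Coq8a and Gm42417. Within 0.1 of Igf2 lay 141 genes, led by Lin7c, Ccar1 and Mapkapk3. Meg3 had 4 such genes, of which C1s1, at 12.8 and 7.85 TPM, Steap4 and Lama4 were the closest. Dlk1 had 39, led by Zfp296, Il2ra and Pcdhgc5 at the same 2 values.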

How the data were processed

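Expected counts with a posterior SD, TPM and, for transcripts, the percent of the gene's TPM were used as the authors deposited them in RSEM's columns, in a gene table and a first transcript table. Estimated counts and TPM of the second transcript table were deposited in kallisto's columns. Genome and annotation are mm10 and GENCODE M21, per the file lists deposited with them. The aligner, tool versions and strand setting: not given in the sources used here. Without a known strand setting, reads of Rtl1 and of the RNAs opposite to it cannot be told apart. Reads of a B6 and CAST cross were counted on mm10, a B6 sequence, which can lose CAST reads, which was not analysed here. In an F1 hybrid such a loss would fall on the reads of a single parent. It therefore bears on level ratios between maternally and paternally expressed members, such as H19 over Igf2. Apart from the strain name, the labels do not give the direction of the cross, and it was not used here.

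Each library has 1 gene table and 2 transcript tables. There was 1 group of 2 libraries, so no test and no p-value was possible. Rows without a gene name (26248 rows with 3 and 5 reads, 6.66e-06% and 1.05e-05% of the total) and 97 spike-in rows (216554 and 185528 reads) stayed out of library sizes. Expected counts were rounded to whole numbers, and ratios used edgeR's TMM factors with a prior count of 0.5. Intervals are exact binomial at 95%. Ratios of levels used log2 of TPM with a pseudocount of 0.1 and were called larger than the spread where the mean passed 2 SD with 1 sign. At these depths the limit of 3 counts covers counting error only. Shares of transcripts are percent of TPM or of reads.

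The members, the 12 gene lists and 10 marker lists (195 entries, of which 195 matched) were chosen with earlier results of these data known. Named genes are the 8 members, the 3 members of highest TPM in each gene list with up to 4 past 2-fold at a mean count of 100 or more, all genes in the cluster bounds whose mean count was at least 10, and the 3 genes nearest in level to H19, Igf2, Meg3 and Dlk1. Marker lists are given by counts and sums. Sequences are from RefSeq (GRCm38.p6), whose table had promoters for 6 of 8 members (not H19 and Rtl1).

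The ratios were tested on simulated data for animal 2 against animal 1 (55536 genes, 200 changed, dispersion 0.04). Changes of log2 1 were recovered at a median of 1.03 and those of log2 2 at 1.94. Of these, 57.0% and 99.0% passed 2-fold, and 1.82% of unchanged genes above a mean count of 100 did. Alternatives were DESeq2's size factors, library size, spike-in scaling, a prior count of 5, other filters, thresholds and pseudocounts, the second transcript table, shares of counts and each library left out. The tools were Python 3.11.15 with pandas 2.3.3, numpy 2.4.6, matplotlib 3.10.9 and scipy 1.17.1, and R 4.3.3 with DESeq2 1.42.0 and edgeR 4.0.16.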

Additional observations from a re-analysis of the deposited data

How the results depend on the processing

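The ratios of H19 (0.66 to 0.97), Meg3 (-0.69 to -0.38), Rian (-0.66 to -0.35), Mirg (-0.53 to -0.21) and Dlk1 (-0.36 to -0.06) kept their sign under DESeq2's size factors, library size, spike-in scaling, a prior count of 5 and the second transcript table. Igf2 (-0.18 to 0.12) changed sign under spike-in scaling. Dio3, on 6 reads and 1 read, ranged from -2.18 to -0.87, and no ratio is read from the 2 reads and none of Rtl1. Counted over all 8 members, these 2 were past 2-fold by the scaled counts, and 0 were with a prior count of 5 or with a mean count of 10 or more. All genes past 2-fold rose from 323 to 1195 at a mean count of 10 or more, where more genes are tested. The 5 members with the same leading transcript in both tables became 3 to 4 when 1 library was left out, with 3 without animal 1, where Rtl1 has no reads. By share of counts there were 6. The median ratio of all 8 members was -0.48, and it moved to -0.28 under spike-in scaling, with the other alternatives between -0.59 and -0.33. The count of members at 1 TPM (4 to 5) and of level ratios larger than the spread (7 of 8 when Dio3 and Rtl1 are included) stayed within 1.5 times under the alternatives run, and the second could not be had from 1 library. Depth limits Mirg, Dlk1, Rtl1 and Dio3, which have at most 50 reads. No paired analysis was possible because there is 1 group.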
